A study of Mus musculus with 6 samples.

Results

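Cells that divide pass from G1 into S phase, copy their DNA, and then move through G2 into mitosis. Cyclins paired with cyclin-dependent kinases (CDKs) drive these steps, the retinoblastoma protein Rb holds back the E2F transcription factors until G1 ends, and many replication genes are E2F targets. Genes for mitosis are transcribed later, under Foxm1 and the MuvB complexes. Myoblasts leave the cell cycle when they differentiate, and myotube nuclei do not normally divide.

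The expression of these genes was examined in C2C12 cells, a mouse myoblast line, after knockdown of calponin 3 (CNN3), an actin-binding protein. The study asked elsewhere whether CNN3 knockdown changes myoblast proliferation, and the sequenced cultures let the same genes be read under differentiation conditions. A list of 48 genes was used, sorted by textbook role into G1/S genes (D and E cyclins with their kinases, inhibitors and Rb, E2F factors, the replicative helicase and other replication genes) and G2/M genes (mitotic cyclins, kinases, checkpoint and spindle genes). Of the 48, 47 had a transcript in the table, 26 of them G1/S and 21 G2/M, among 11835 genes in all, and Cdkn1c was skipped because no transcript of it was listed. The sorting uses roles and not measured values. All 47 passed the filter on low values, with 94 transcripts between them.

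Both groups were grown in DMEM with 10% fetal bovine serum and moved to DMEM with 2% horse serum to differentiate. Of the 6 libraries, 3 came from cells transfected with a negative control siRNA (siNC) and 3 from cells transfected with CNN3 siRNA (siCNN3). The labels call all of them mouse myotube, and the study calls the sequenced cells differentiating myoblasts. Neither says which CNN3 siRNA was used for sequencing or that the 3 libraries of a group are separate cultures, so p-values measure the spread between these libraries only, which may be technical.

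Values are FPKM (fragments scaled by the length of the transcript and by the mapped fragments of the library, so a level per length), summed per gene. The depth is unknown, so no counting error can be given. Cnn3 itself was at 62.8, 61.4 and 62.8 in siNC against 19.0, 39.2 and 25.6 FPKM in siCNN3, with no overlap (log2 fold change -1.19, standard error 0.242, adjusted p = 0.0669 by limma with Benjamini-Hochberg adjustment, not past 0.05). Of the 11593 genes tested, 200 were called higher in siCNN3 and 39 lower. Of the late muscle genes, Ckm was low already in siNC, at 0.414 to 0.911 FPKM. Acta1 was at 24.6 to 33.8 and Mylpf at 22.8 to 36.5 FPKM there. All 7 myotube markers tested were below siNC in every siCNN3 library, and 5 were called lower. All 8 interferon response markers were above siNC in every siCNN3 library, and 5 were called higher. Over all genes tested, 9.35% lay below siNC in every siCNN3 library and 13.8% lay above it. Of the 5 myoblast markers tested, 4 had a log2 fold change below 0, with a median of -0.36 and 0 called. The other, Myf5, had one of 0.88. Markers of other cell types that the table lists were Cd68, of leukocytes, at 1.96 to 5.39 FPKM, Tek, of endothelium, at 0.681 to 1.37, and the globin genes Hbb-bs and Hba-a1, at 7.77 to 250.4. Hbb-bs was called lower in siCNN3. The part of these markers in the results below was not tested.

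Promoters of a few members are shown because short sequence words in them differ in frequency between G1/S and G2/M genes. The members shown were picked for holding such words before the start of transcription and for their fold changes. They had the largest increases among such G1/S members or the largest decreases among such G2/M members, so they are not typical of the sets. RefSeq promoter windows, from 250 bases before to 50 bases after the start of transcription (GRCm38.p6), were at hand for 37 of the 47 members in 41 windows. Both strands were searched for the 4 E2F words TTTCCCGC, TTTCGCGC, TTTGCCGC and TTTGGCGC, for CCAAT, and for the cell cycle homology region (CHR) word TTTGAA. An E2F word stood in 8 of 24 G1/S windows (33.3%), in 1 of 17 G2/M windows (5.88%) and in 2.26% of all 32851 windows. CCAAT and CHR words stood together in 13 of 17 G2/M windows (76.5%), in 2 of 24 G1/S windows (8.33%) and in 6.95% of all. In the sequences below, written 5′ to 3′ on the strand of the gene, capitals mark E2F words in the G1/S genes, and CCAAT and CHR words in the G2/M genes, on either strand. The Mcm6 stretch also holds a CCAAT on its other strand, left in lower case. Mcm6 (chr1:128359740-128359820, minus strand), Cdc6 (chr11:98908008-98908025, plus strand) and Mcm5 (chr8:75109351-75109372, plus strand) hold E2F words, which overlap on opposite strands in Mcm6 and Mcm5. Cdc20 (chr4:118437344-118437401, minus strand) and Ccnb2 (chr9:70421555-70421726, minus strand) hold CCAAT and CHR words.
Mcm6: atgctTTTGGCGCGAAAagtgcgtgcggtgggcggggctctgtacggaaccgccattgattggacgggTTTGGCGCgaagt
Cdc6: ggagaGCGGGAAAtcgcc
Mcm5: agaacTTTCGCGCCAAAacgtc
Cdc20: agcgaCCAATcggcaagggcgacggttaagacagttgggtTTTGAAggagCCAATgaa
Ccnb2: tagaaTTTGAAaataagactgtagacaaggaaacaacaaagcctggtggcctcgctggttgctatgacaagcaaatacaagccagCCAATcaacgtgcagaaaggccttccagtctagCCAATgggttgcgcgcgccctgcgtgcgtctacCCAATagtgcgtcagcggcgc

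**Figure D1:**
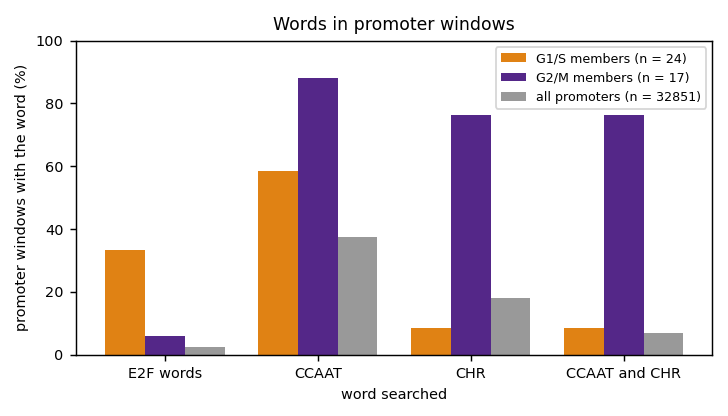
Share of RefSeq promoter windows (%, y axis) that hold each word on the x axis, for G1/S members (24 windows), G2/M members (17 windows) and all windows (32851). The E2F words are most frequent in G1/S members (33.3%), and CCAAT with CHR in G2/M members (76.5%).

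None of the 47 members passed the test between siCNN3 and siNC. Of all genes tested, 1.73% were called higher, 0.336% lower and 2.06% in either direction, so a count of 0 among 47 is near this background. At an unadjusted p under 0.05, Ccnd2 was higher and Rb1 lower, where 9.94% of all genes were higher, 6.14% lower and 16.1% either. The groups did not overlap for 3 members: Ccnd2 was higher in every siCNN3 library, and Cdk6 and Cdkn2c were lower. Over all genes, 13.8% did not overlap with siCNN3 higher and 9.35% with siCNN3 lower, 23.1% in all. With 3 libraries against 3, an exact permutation test of a single gene cannot give a p below 0.1.

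The medians of the G1/S and G2/M members lay on either side of 0. Of the 26 G1/S members, 18 had a log2 fold change above 0, with a median of 0.26 and a range from -0.39 to 1.05. Of the 21 G2/M members, 8 were above 0, with a median of -0.07 and a range from -0.52 to 0.19. Without siNC replicate 2 or siCNN3 replicate 3, both sets lay mostly above 0, with 21 of 26 G1/S members in each fit and 17 and 13 of 21 G2/M members. Over all 11593 genes the median was 0.03 and 54.0% were above 0. The median over all genes was -0.003 with median-of-ratios scaling and -0.05 with quantile normalization. With quantile normalization the G1/S median was 0.17 and the G2/M median -0.15. Of the 13 replication genes, the helicase subunits included, 12 were above 0, with a median of 0.32. That median was 0.07 without siNC replicate 1, where 8 were above 0, 0.13 without siCNN3 replicate 1, 0.18 without siCNN3 replicate 2, 0.58 without siNC replicate 2 and 0.66 without siCNN3 replicate 3. These counts describe the lists and carry no test, since the genes of a list vary together from library to library.

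**Figure D2:**
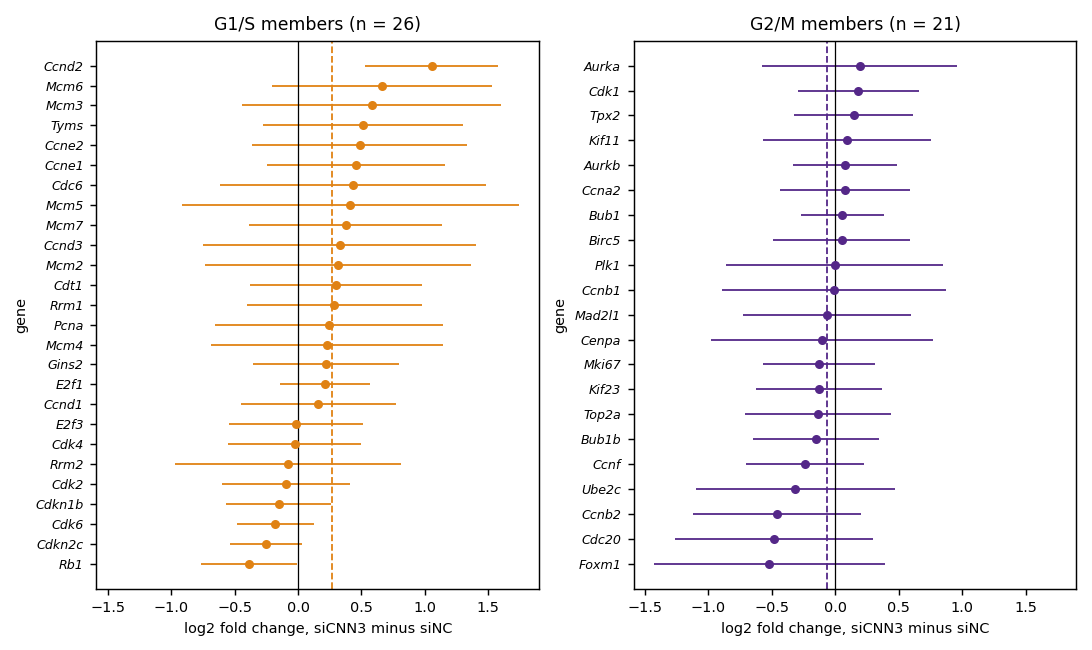
Log2 fold change of each member (x axis, siCNN3 minus siNC on log2(FPKM + 1), points) with its 95% confidence interval from limma (lines, 3 libraries a group), for G1/S genes (left) and G2/M genes (right). The dashed lines are the medians, 0.26 and -0.07, and the intervals of all members but Ccnd2 and Rb1 include 0.

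In G1, D cyclins bind CDK4 or CDK6 and begin the phosphorylation of Rb. Ccnd2, encoding cyclin D2, had the lowest adjusted p of the members. It was at 10.9, 10.2 and 12.02 in siNC against 27.5, 29.6 and 16.8 FPKM in siCNN3. The siCNN3 libraries were all above the siNC libraries, although siCNN3 replicate 3 lay closer to siNC than to the other siCNN3 libraries. The means were 11.0 ± 0.901 and 24.6 ± 6.85 FPKM (SD, n = 3), which gave a log2 fold change of 1.05 (standard error, SE, 0.221, limma adjusted p = 0.0726). Without siCNN3 replicate 3 it passed the test (log2 fold change 1.30, adjusted p = 0.00647, limma), where 3.83% of all genes were called higher. Over the other alternatives its adjusted p was between 0.0618 and 0.263. Nearly all of its FPKM came from 1 transcript, of 6330 nucleotides, at 9.54 to 11.6 in siNC and 16.4 to 29.1 in siCNN3.

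Ccnd1, encoding cyclin D1, was the most abundant D cyclin per length. It was at 58.6, 108 and 87.4 in siNC against 105, 105 and 70.3 FPKM in siCNN3. The groups overlapped, with a log2 fold change of 0.16 and a 95% interval from -0.45 to 0.77 (limma adjusted p = 0.801). Ccnd1 made up 74.8%, 83.7% and 75.5% of the summed D cyclin FPKM in siNC and 63.9%, 72.6% and 72.3% in siCNN3. The share of Ccnd2 was 13.9%, 7.95% and 10.4% in siNC and 16.7%, 20.5% and 17.3% in siCNN3. Each siCNN3 library thus had a larger share of cyclin D2 than any siNC library. The shares of cyclin D1 overlapped between the groups without the uncertain Ccnd3 transcript described next, when Ccnd1 made up 74.8%, 84.4% and 83.3% in siNC against 76.1%, 73.0% and 72.6% in siCNN3.

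Ccnd3, the cyclin D gene that is induced when myoblasts differentiate, was at 8.91, 10.8 and 16.3 in siNC against 31.9, 9.93 and 10.1 FPKM in siCNN3. The high value of siCNN3 replicate 1 came from 1 transcript, of 2113 nucleotides, listed at 26.3 FPKM there and at 0.876 and 0.393 in the other siCNN3 libraries. The same transcript was listed at 0 in siNC replicate 1 and at 10.8 in siNC replicate 3, so its estimate is uncertain. The log2 fold change of the gene was 0.33 (SE 0.453, limma adjusted p = 0.763). With this transcript and others of uncertain estimate left out, it was 0.02 (limma adjusted p = 0.985).

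The kinases of G1 gave small differences. Cdk4 was at 45.2, 66.7 and 56.4 in siNC against 65.9, 60.1 and 40.6 FPKM in siCNN3, which overlapped (log2 fold change -0.03, 95% interval from -0.55 to 0.50, adjusted p = 0.968, limma). Cdk6 was at 11.6, 13.4 and 11.6 in siNC against 11.1, 10.8 and 10.1 FPKM in siCNN3. All siCNN3 values of Cdk6 lay below siNC, but the difference was small (log2 fold change -0.18, SE 0.127, limma adjusted p = 0.539).

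**Figure D3:**
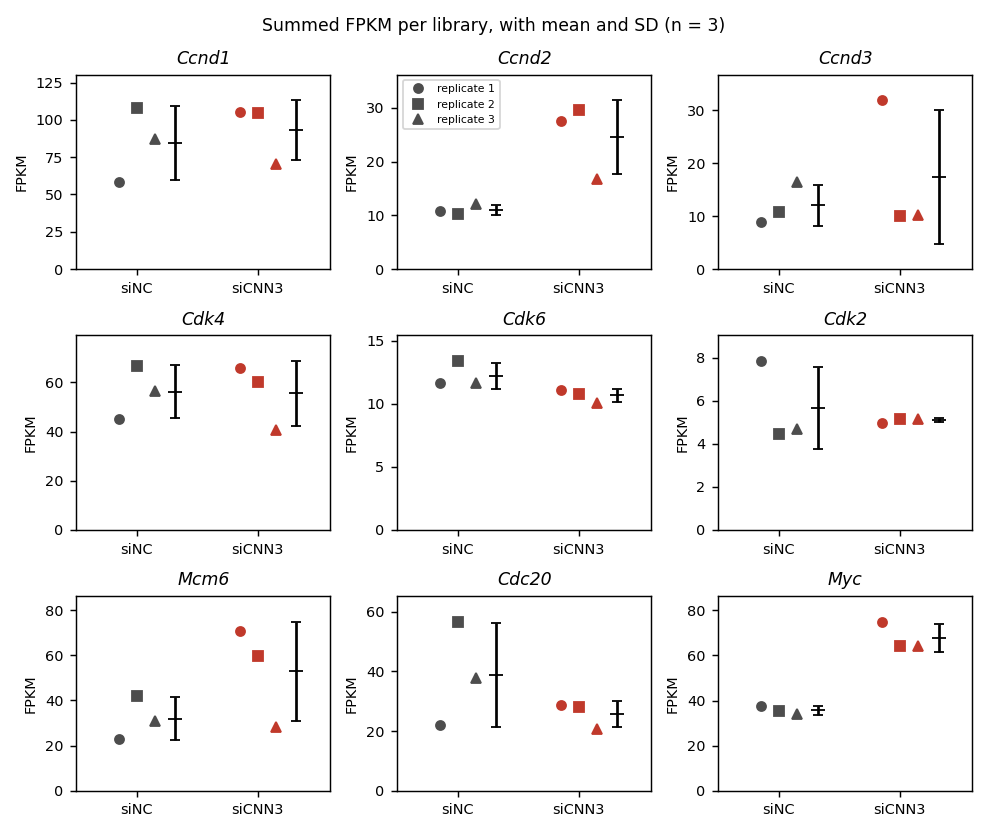
Summed FPKM (y axis, from 0) of 8 members and of Myc in siNC (grey) and siCNN3 (red), with a symbol for each replicate number and the mean ± SD beside them (n = 3). Ccnd2 and Myc lie higher and Cdk6 lower in siCNN3 without overlap, while the siCNN3 replicate 3 value of Mcm6 (28.4 FPKM) lies among the siNC values.

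Cyclin E with CDK2 completes the passage into S phase. Ccne2 was at 4.50, 7.90 and 9.18 in siNC against 14.3, 11.9 and 5.90 FPKM in siCNN3. The first and second siCNN3 replicates were above siNC and the third was within it (log2 fold change 0.49, SE 0.356, limma adjusted p = 0.554, and 0.22 to 0.83 with 1 library left out). Its paralog Ccne1 had a log2 fold change of 0.46, with the same order of the siCNN3 libraries. Cdk2 was at 7.86, 4.44 and 4.69 in siNC against 4.98, 5.16 and 5.14 FPKM in siCNN3. The siCNN3 values lay within the siNC range (log2 fold change -0.09, 95% interval from -0.60 to 0.41, adjusted p = 0.865, limma).

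The 3 listed members that act as brakes on G1 had log2 fold changes below 0, with a median of -0.25 and 0 called. Brakes among the other cell cycle genes read here did not all share this sign, with 0.17 for Cdkn1a and 0.41 for Rbl1 against -0.23 for Cdkn2d and -0.21 for Rbl2. Rb1, which encodes Rb, was at 17.1, 13.4 and 15.3 in siNC against 10.1, 10.7 and 13.4 FPKM in siCNN3. The groups overlapped narrowly at siNC replicate 2 and siCNN3 replicate 3 (log2 fold change -0.39, SE 0.16, limma adjusted p = 0.298). Cdkn2c, encoding the CDK4/6 inhibitor p18, was at 20.7, 24.2 and 23.3 in siNC against 18.2, 18.4 and 19.9 FPKM in siCNN3, with no overlap (log2 fold change -0.25, adjusted p = 0.36, limma). Cdkn1b, encoding p27, was at 27.0, 21.6 and 25.5 in siNC against 19.3, 19.9 and 27.8 FPKM in siCNN3. Here siCNN3 replicate 3 was the highest of all 6 libraries (log2 fold change -0.15, adjusted p = 0.717, limma), and the log2 fold change was 0.13 with its most abundant transcript alone.

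E2F1 and E2F3 activate genes of S phase. E2f1 was at 9.87, 13.1 and 11.6 in siNC against 14.4, 13.8 and 12.1 FPKM in siCNN3 (log2 fold change 0.21, SE 0.149, limma adjusted p = 0.531). E2f3 was at 4.93, 7.70 and 6.94 in siNC against 7.29, 7.37 and 4.74 FPKM in siCNN3, where siCNN3 replicate 3 was the lowest library (log2 fold change -0.01, adjusted p = 0.985, limma).

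Mcm2 to Mcm7 encode the ring that unwinds DNA at the fork, and its 6 subunits varied together from library to library. Their mean was 15.3, 34.1 and 24.3 FPKM in siNC and 45.6, 39.1 and 18.3 FPKM in siCNN3. In all 6 genes siNC replicate 1 was the lowest and siNC replicate 2 the highest of siNC, and siCNN3 replicate 3 the lowest of siCNN3. All 6 log2 fold changes were above 0, from 0.23 for Mcm4 to 0.66 for Mcm6, with a median of 0.39 and 0 called. Mcm6 was at 23.0, 41.9 and 30.7 in siNC against 70.6, 59.9 and 28.4 FPKM in siCNN3 (SE 0.366, limma adjusted p = 0.427), and its log2 fold change ran from 0.41 to 1.05 with 1 library left out. Mcm4 was at 20.4, 41.7 and 29.5 in siNC against 48.5, 42.8 and 19.6 FPKM in siCNN3 (SE 0.385, limma adjusted p = 0.812). The difference between the means was thus smaller than the spread within each group for Mcm4, and siCNN3 replicate 3 was below every siNC library.

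The other replication genes had nearly the same order of libraries. They were Pcna, the sliding clamp, Rrm1 and Rrm2, the subunits of ribonucleotide reductase, Tyms, thymidylate synthase, Gins2 of the fork complex, and Cdc6 and Cdt1, which load the helicase. Of the 7, 6 had a log2 fold change above 0 (median 0.29, 0 called). Tyms was at 2.84, 5.86 and 5.76 in siNC against 9.55, 8.16 and 4.34 FPKM in siCNN3 (log2 fold change 0.51, SE 0.333, limma adjusted p = 0.504, and 0.24 to 0.80 with 1 library left out). Rrm2 was the exception, at 36.6, 73.0 and 55.2 in siNC against 68.4, 62.4 and 29.1 FPKM in siCNN3 (log2 fold change -0.08, SE 0.374, limma adjusted p = 0.943). Pcna, the most abundant of them per length, was at 51.8 to 101 FPKM in siNC and 50.3 to 121 FPKM in siCNN3.

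**Figure D4:**
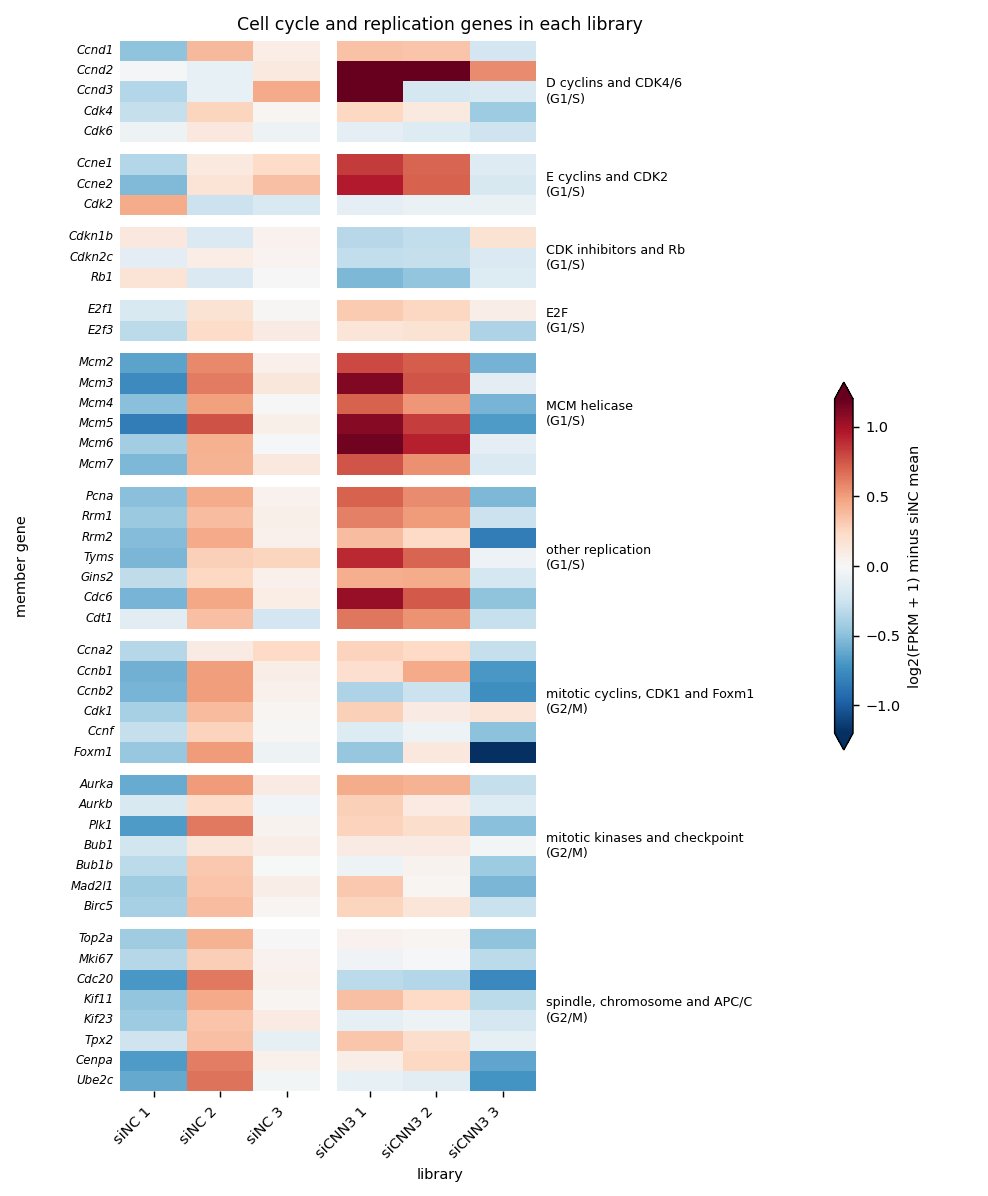
Log2(FPKM + 1) of each of the 47 members (rows, by role) in each library (columns) minus its siNC mean, from blue (lower) to red (higher), with the colour scale ending at the marked limits. Most rows are lowest of siNC in siNC replicate 1 (41 of 47) and lowest of siCNN3 in siCNN3 replicate 3 (41 of 47), and the replication genes are reddest in siCNN3 replicates 1 and 2.

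The fold changes of mitotic genes lay on both sides of 0. Of the mitotic cyclins, Cdk1 and Foxm1, 2 of 6 had a log2 fold change above 0 (median -0.13), as did 4 of 7 mitotic kinases and checkpoint genes (median 0.05) and 2 of 8 genes of the spindle, the chromosomes and the anaphase-promoting complex (median -0.13), with 0 called in each. Foxm1, a transcription factor of mitotic genes, was at 7.52, 15.6 and 10.2 in siNC against 7.42, 11.7 and 3.997 FPKM in siCNN3. It had the lowest log2 fold change of all members, -0.52 (SE 0.384, limma adjusted p = 0.556), which ran from -0.84 to -0.17 with 1 library left out. Cdk1, the kinase of mitotic entry, was at 31.7, 55.0 and 42.8 in siNC against 51.7, 45.2 and 47.1 FPKM in siCNN3 (log2 fold change 0.18, adjusted p = 0.703, limma), and its most abundant transcript alone gave -0.16. In siCNN3 replicate 3, 23.5 FPKM of Cdk1 were assigned to a transcript of 695 nucleotides that was at 2.51 to 9.19 FPKM in the other libraries.

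Cdc20, an activator of the anaphase-promoting complex, was at 21.9, 56.6 and 37.6 in siNC against 28.5, 28.1 and 20.7 FPKM in siCNN3. The siNC libraries spanned the siCNN3 values except for siCNN3 replicate 3 (log2 fold change -0.48, SE 0.328, limma adjusted p = 0.523, and -0.83 to -0.16 with 1 library left out). Ccnb2, encoding cyclin B2, had a log2 fold change of -0.46, and Ube2c, the ubiquitin-conjugating enzyme of the same complex, one of -0.32. The other B cyclin, Ccnb1, had one of -0.01. Tpx2, which assembles spindle microtubules, was at 33.2, 51.3 and 36.9 in siNC against 50.5, 46.3 and 36.8 FPKM in siCNN3 (log2 fold change 0.15, adjusted p = 0.759, limma), and its most abundant transcript alone gave -0.46.

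Aurka, the centrosomal kinase activated by TPX2, was at 12.1, 27.4 and 20.4 in siNC against 26.2, 25.6 and 15.4 FPKM in siCNN3 (log2 fold change 0.19, SE 0.324, limma adjusted p = 0.812). Bub1b, of the spindle checkpoint, was at 16.2, 25.8 and 20.4 in siNC against 19.6, 21.01 and 14.8 FPKM in siCNN3 (log2 fold change -0.15, SE 0.208, limma adjusted p = 0.761). Mki67, which encodes the proliferation marker Ki67, was at 28.9, 45.5 and 38.2 in siNC against 35.7, 36.6 and 29.4 FPKM in siCNN3. All siCNN3 values of Mki67 lay within the siNC range (log2 fold change -0.13, 95% interval from -0.57 to 0.32, adjusted p = 0.778, limma).

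Library by library, both sets were lowest in the same library of each group, and in siCNN3 the G2/M median lay below the G1/S median. Relative to the siNC mean on the log2(FPKM + 1) scale, the median G1/S member was at -0.38, 0.27 and 0.06 in siNC and at 0.67, 0.52 and -0.21 in siCNN3. The median G2/M member was at -0.43, 0.38 and 0.05 in siNC and at 0.10, 0.10 and -0.44 in siCNN3. Within siNC the sets followed each other closely, and in siCNN3 replicate 3 both were below the siNC mean. The G2/M median minus the G1/S median was -0.04, 0.10 and -0.01 in siNC and -0.58, -0.42 and -0.23 in siCNN3. The groups did not overlap on this measure, which is centred near 0 in siNC by its construction and carries no test. Summed FPKM of G1/S members over that of G2/M members, which is not centred, was 0.868, 0.785 and 0.847 in siNC and 1.16, 1.07 and 0.882 in siCNN3, again without overlap. The difference between the medians of the fold changes was -0.33, and it was between -0.43 and -0.22 with each library left out.

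**Figure D5:**
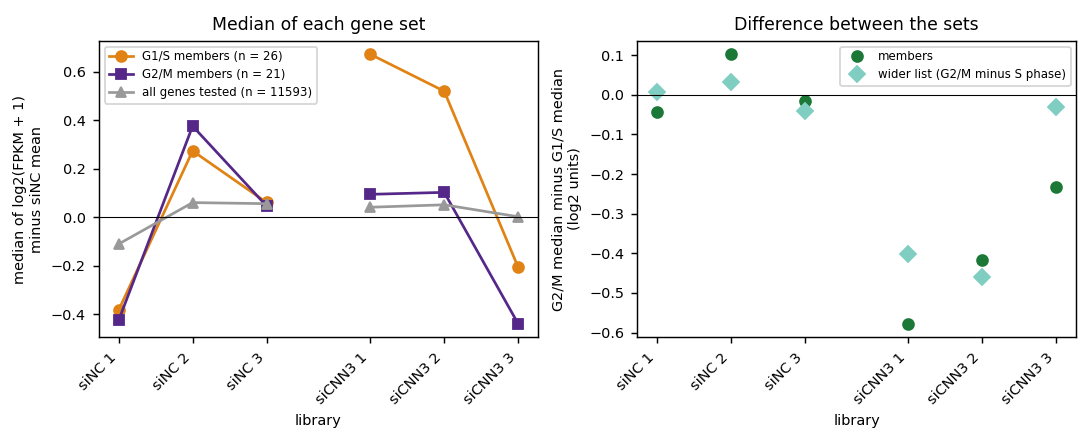
Left, the median of log2(FPKM + 1) minus the siNC mean (y axis) in each library for G1/S members, G2/M members and all genes tested. Right, the G2/M median minus the G1/S median in each library for the members and for the wider list. All genes stay between -0.11 and 0.06, the members' difference is lower in each siCNN3 library than in any siNC library, and the wider list in siCNN3 replicate 3 (-0.03) lies within siNC.

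For each set on its own, the spread between libraries of a group was larger than the difference between groups: the SD of the set medians within groups was 0.41 for G1/S and 0.36 for G2/M members on the log2 scale. For the G2/M median minus the G1/S median this SD was 0.13, smaller than the difference of -0.33. This comparison carries no test, and in the wider list the difference in siCNN3 replicate 3 (-0.03) lay within siNC. Of the 47 members, siNC replicate 1 was the lowest siNC library in 41 (87.2%, against 58.6% of all genes), and siNC replicate 2 the highest in 39 (83.0%, against 45.1%). In siCNN3, replicate 3 was the lowest in 41 (87.2%, against 48.4%). Some other measures shared parts of this order. The interferon markers had medians of -1.64, 1.64 and -0.07 in siNC and 4.92, 4.86 and 3.74 in siCNN3, so that siNC replicate 1 and siCNN3 replicate 3 were again lowest in their groups. The myotube markers had medians of -0.25, 0.26 and -0.07 in siNC and -1.59, -1.57 and -1.32 in siCNN3, where replicate 3 was the highest. In siNC replicate 1, 2120 transcripts were listed at 0, compared with 976 to 1324 in the other libraries. Their part in the result was not tested. In such bulk RNA, fewer cycling cells and less of these RNAs per cell cannot be told apart.

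The medians depended on single libraries. Without siCNN3 replicate 3, the G1/S median was 0.59 and the G2/M median 0.16, and 1 member was called, where 3.83% of all genes were called higher and 1.39% lower. Without siNC replicate 1, the G1/S median was 0.07 and the G2/M median -0.30, with 0 called. Without siNC replicate 2 they were 0.47 and 0.13. The order of the sets was the same in these fits, while the sign of the G2/M median was not.

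A wider list of 93 cell cycle genes that are not members was described in the same way. Of its 32 S phase genes, 29 had a log2 fold change above 0 (median 0.27), and of its 40 G2/M genes 20 had one (median -0.002), with 0 called in both. With quantile normalization, 27 S phase genes (median 0.20) and 11 G2/M genes (median -0.09) were above 0. Without siNC replicate 1, 21 S phase genes (median 0.06) and 7 G2/M genes were above 0. The S phase median was 0.43 without siNC replicate 2, 0.16 without siCNN3 replicate 1, 0.14 without siCNN3 replicate 2 and 0.54 without siCNN3 replicate 3. Of the wider G2/M genes, 33 were above 0 without siNC replicate 2 and 29 without siCNN3 replicate 3. The wider G2/M median minus the S phase median was 0.01, 0.03 and -0.04 in siNC and -0.40, -0.46 and -0.03 in siCNN3. Unlike the members' difference, that of siCNN3 replicate 3 lay within siNC.

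Myc was the only gene of the 93 in the wider list that passed the test, where 1.73% of all genes were called higher, so that 1 call is near this background. It encodes a transcription factor that promotes entry into the cell cycle, and stood at 37.7, 35.3 and 33.9 in siNC against 75.0, 64.1 and 64.3 FPKM in siCNN3. The libraries of each group lay close together and the groups were far apart, with means of 35.6 ± 1.88 and 67.8 ± 6.21 FPKM (SD, n = 3). Myc thus rose by 0.91 on the log2 scale (SE 0.114, limma adjusted p = 0.0157). Unlike the replication genes, its level in siCNN3 replicate 3 was that of siCNN3 replicate 2. The call was lost when siNC replicate 3 was left out (log2 fold change 0.87, limma adjusted p = 0.101), and likewise for siCNN3 replicate 1 (0.83, 0.0828) and siCNN3 replicate 2 (0.94, 0.0849).

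Of the 21 G1 regulators that include Myc, 11 had a log2 fold change above 0, with a median of 0.04 and 1 called. Cdkn1a, which encodes the CDK inhibitor p21 and was singled out after its values were seen, was at 231, 171 and 165 in siNC against 189, 183 and 268 FPKM in siCNN3. Its highest libraries were siNC replicate 1 and siCNN3 replicate 3, where most members were lowest (log2 fold change 0.17, adjusted p = 0.718, limma). Cdkn2a, Cdkn2b and Mycn had no transcript listed and were not analysed here.

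The median fold changes were also set beside the promoter words. The 9 members with an E2F word had a median of 0.37 for the log2 fold change, 7 of them above 0, and the 15 with CCAAT and CHR words had a median of -0.13, with 4 above 0. The 15 members with neither had a median of 0.05, with 8 above 0. E2f3 and Cdk1 count in both groups of words, and 8 of the 9 with an E2F word are G1/S members, so these medians largely restate the split between the sets. Among all genes tested with a window, 437 with an E2F word had a median of 0.09, 552 with CCAAT and CHR words had 0.05, and 8113 with neither had 0.03. A word is a match of letters only, and these medians carry no test.

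The study also measured some of these genes by quantitative PCR in proliferating myoblasts, and its primers show which transcripts of the present table they read. The primers are given because the pair labelled CDK2 matched a different gene. The study also measured CDK2, CDK4 and CDK6 as proteins by Western blot, which does not depend on these primers. Each pair was matched letter by letter to GENCODE transcripts of GRCm38, and the sites given below are in coding sequence.
cyclin D forward: gcgtaccctgacaccaatctc
cyclin D reverse: ctcctcttcgcacttctgctc
CDK2 forward: gcgacctcctcccaatatcg
CDK2 reverse: gtctgatctctttccccaactct

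The cyclin D pair matched Ccnd1 alone, in exon 1 (chr7:144939628-144939648, minus strand) and exon 2 (chr7:144938073-144938093), so neither Ccnd2 nor Ccnd3 was matched by it. The pair labelled CDK2 matched all 4 listed transcripts of Cdk2ap1, in exon 2 (chr5:124350124-124350143, minus strand) and exon 3 (chr5:124348646-124348668) of the transcript with 1315 nucleotides, and the locus Gm12184. It matched 0 of 7 annotated Cdk2 transcripts, where the forward primer had at least 8 mismatches in 20 nucleotides and the reverse primer at least 9 in 23. Cdk2ap1, which encodes a CDK2-associated protein, was at 26.1, 43.0 and 35.2 in siNC against 31.0, 29.7 and 30.8 FPKM in siCNN3. These values overlapped (log2 fold change -0.15, adjusted p = 0.728, limma). The CDK4 pair matched the 3 listed Cdk4 transcripts, the Ki67 pair the listed transcript of Mki67, and the CDK6 pair 1 of 3 listed Cdk6 transcripts, which held 79.2% to 86.3% of the FPKM of Cdk6.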

How the data were processed

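RNA of 3 siNC and 3 siCNN3 libraries of C2C12 cells was sequenced, and the authors deposited FPKM for 24023 Ensembl transcripts. The submitters' processing notes name Bowtie 0.12.2 and the builds mm8 and mm10. The program that made the FPKM and the read numbers are not given in the sources used here, so the depth is unknown. Identifiers without their version were matched to GENCODE M21 (23949 matched), and FPKM were summed per gene symbol. Genes whose mean over the 6 libraries reached 0.5 FPKM entered the fit, made on log2(FPKM + 1) by limma 3.58.1 under R 4.3.3 (mean-variance trend, Benjamini-Hochberg adjustment over all 11593 genes, threshold 0.05). Such fold changes understate those of low genes. The fit was tested on simulated data. Some values of exactly 0 may be failed estimates: 330 transcripts were at 0 in 1 or more libraries and at 10 FPKM or more in another.

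The members and lists were chosen with earlier results of these data known. Named genes are those measured by PCR in the study, the D cyclins, called genes, the members with the highest and lowest fold change in each of the 9 roles, and, of the wider list, the 2 highest and 2 lowest. Of these, 1 is not reported here. Others were chosen after their values were seen. Words and primers were matched in Python 3.11.15 (pandas 2.3.3, numpy 2.4.6), and figures drawn with matplotlib 3.10.9.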

Additional observations from a re-analysis of the deposited data

How the results depend on the processing

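Alternatives were a pseudocount of 0.1, no filter or one at 5 FPKM, other scaling, no trend, a replicate block, other ways to sum transcripts, and each library left out. No member was called under any of them except Ccnd2 without siCNN3 replicate 3. The called genes of the whole table ranged from 16 to 444 higher and from 4 to 161 lower with 1 library left out, the called members from 0 to 1, and the called genes of the wider list from 0 to 2. They were 62 higher and 6 lower with the replicate block and 100 and 22 with the transcript of the highest mean. Median-of-ratios scaling gave 63 lower genes and quantile normalization 93. Replicate numbers did not pair the libraries (correlations of deviations -0.28, 0.31 and -0.02 for the same numbers). With the block, 0 members and 0 genes of the wider list were called, Myc having an adjusted p of 0.0669 (limma). With 1 library left out, the log2 fold change ranged from -0.080 to 0.36 for Ccnd1, from -0.22 to 0.13 for Cdk2, from -0.17 to 0.18 for Cdk4, from -0.30 to 0.021 for Mki67, from -0.20 to 0.60 for Ccnd3, from -0.18 to 0.16 for E2f3, from -0.023 to 0.62 for Mcm4, from -0.34 to 0.30 for Rrm2, from -0.017 to 0.37 for Cdk1, from -0.11 to 0.45 for Aurka and from -0.31 to 0.0078 for Bub1b. With the transcript of the highest mean alone, Cdkn1b was at 0.13, Cdk1 at -0.16 and Tpx2 at -0.46. The cause of these changes was not tested. Cnn3 ranged from -1.46 to -0.95 with 1 library left out, and passed the test without siCNN3 replicate 2 (-1.46, adjusted p = 0.0475, limma). The G1/S median stayed above 0 (0.07 to 0.59) and the difference between the sets below 0 (-0.43 to -0.22), while the G2/M median ran from -0.30 to 0.16. The unknown depth limits what can be said of low genes such as Cdc6 and Tyms.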

Other observations

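Of the wider G2/M list, the lowest log2 fold changes were those of Smc4 and Gas2l3, and in both the libraries of a group disagreed. Smc4, a condensin subunit, was at 31.5, 67.6 and 55.4 in siNC against 75.6, 19.7 and 8.78 FPKM in siCNN3 (log2 fold change -1.01, SE 0.711, limma adjusted p = 0.538, and -1.81 to -0.33 with 1 library left out). Gas2l3, a cytoskeletal linker, was at 2.45, 12.3 and 10.5 in siNC against 2.21, 2.20 and 11.1 FPKM in siCNN3 (log2 fold change -0.70, SE 0.688, limma adjusted p = 0.664, and -1.34 to -0.34 with 1 library left out). Psrc1, chosen after its values were seen, was at 33.4, 19.0 and 19.6 in siNC against 23.4, 22.9 and 35.7 FPKM in siCNN3, the reverse of the order of most G2/M genes.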
